A study of Homo sapiens with 9 samples.

Results

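The 10 immediate early response genes FOS, FOSB, JUN, JUNB, JUND, EGR1, ATF3, IER2, MYC and DUSP1 were followed by their symbols in a table of 19969 genes, and all 10 were found. The table holds read counts from 9 ribosomal-RNA-depleted libraries of HEK293T, a human embryonic kidney line that carries the SV40 large T antigen. Of these libraries, 6 are labelled with an FHY1-M3 construct, 2 each with an ACTB, a con and a non-target guide RNA (sgRNA), and 3 are labelled input. FHY1 is an Arabidopsis protein of phytochrome A signalling, and the series is about m6A, a methyl mark of RNA, edited under the control of red or far-red light. The labels give no construct, guide or light regime for the inputs, no light regime for any library, and no RNA fraction (total, supernatant or immunoprecipitated) for the FHY1-M3 libraries. The count table names the con columns con_ACTB, so whether those cells also received the ACTB guide is not known.

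Immediate early genes are transcribed within minutes of a stimulus, from promoters where preassembled factors such as SRF with its ELK partners, or CREB, are switched on by MAP kinases. Many of their mRNAs are short-lived because AU-rich elements in them recruit decay factors. FOS and FOSB encode proteins that pair with JUN, JUNB or JUND to form AP-1, ATF3 is a bZIP factor of the stress response, EGR1 is a zinc finger factor, IER2 is a short nuclear protein, MYC is a growth regulator, and DUSP1 is the phosphatase that shuts MAP kinases off again. JUND differs from its paralogs in being kept at a steady level in many resting cells. None of these clauses is a result of these data.

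Total counts were 2900021 to 3802681 in the FHY1-M3 libraries and 350413 to 643954 in the inputs, and the ranges do not overlap, so depth and group cannot be told apart by design. Levels are given as CPM, counts scaled to a common library size with TMM factors of the 9 libraries, and 1 count stood for 0.26 to 0.342 CPM in FHY1-M3 libraries and 1.63 to 2.89 CPM in inputs. Of 8 markers of HEK293T (KRT8, KRT18, VIM, CDH2, NEFL, NEFM, LIN28B and PAX2), all 8 were detected in every library. Of the markers of other cells, PTPRC, CD3E and COL1A2 were at 0 throughout. COL1A1 stood at 16.8 to 48.9 CPM in FHY1-M3 libraries and 10.5 to 63.6 CPM in inputs, and ALB and PECAM1 at no more than 5.23 CPM in any library. In such bulk RNA, fewer cells with a transcript and less of it per cell cannot be told apart.

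The 10 genes together took 0.237% to 0.258% of the counts of an FHY1-M3 library and 0.192% to 0.23% of an input library. The exact Clopper-Pearson 95% bounds of these shares reached from 0.23% to 0.266% in FHY1-M3 libraries and from 0.173% to 0.247% in inputs. They were computed on counts halved to read pairs, since most counts were even and both mates appear to have been counted, and they cover counting error only. The ranges of these bounds overlap, while single genes differed more and in opposite directions. JUN supplied 52.6% to 56.9% of the counts of the 10 genes in FHY1-M3 libraries and 36.7% to 38.2% in inputs.

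The comparison of all FHY1-M3 libraries with input asks how the construct-bearing libraries differ from the RNA they are set beside. JUN, JUNB and IER2 rose and JUND and EGR1 fell, while FOS, FOSB, ATF3, MYC and DUSP1 did not pass the test (edgeR quasi-likelihood test, Benjamini-Hochberg adjusted p at most 0.05, all values below from this test). Higher calls made up 11.4% of the 13411 genes tested, lower calls 8.6% and both together 20%. The 5 calls among 10 genes stand against that background, and 8 of the 10 had an unadjusted p under 0.05, against 31.9% of all genes. The median log2 fold change was 0.32 over the 10 genes and 0.04 over all genes tested. Libraries did not overlap for JUN, JUNB, IER2 and FOS upward and for JUND and MYC downward, where 14.9% and 8.51% of all genes did so.

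**Figure D1:**
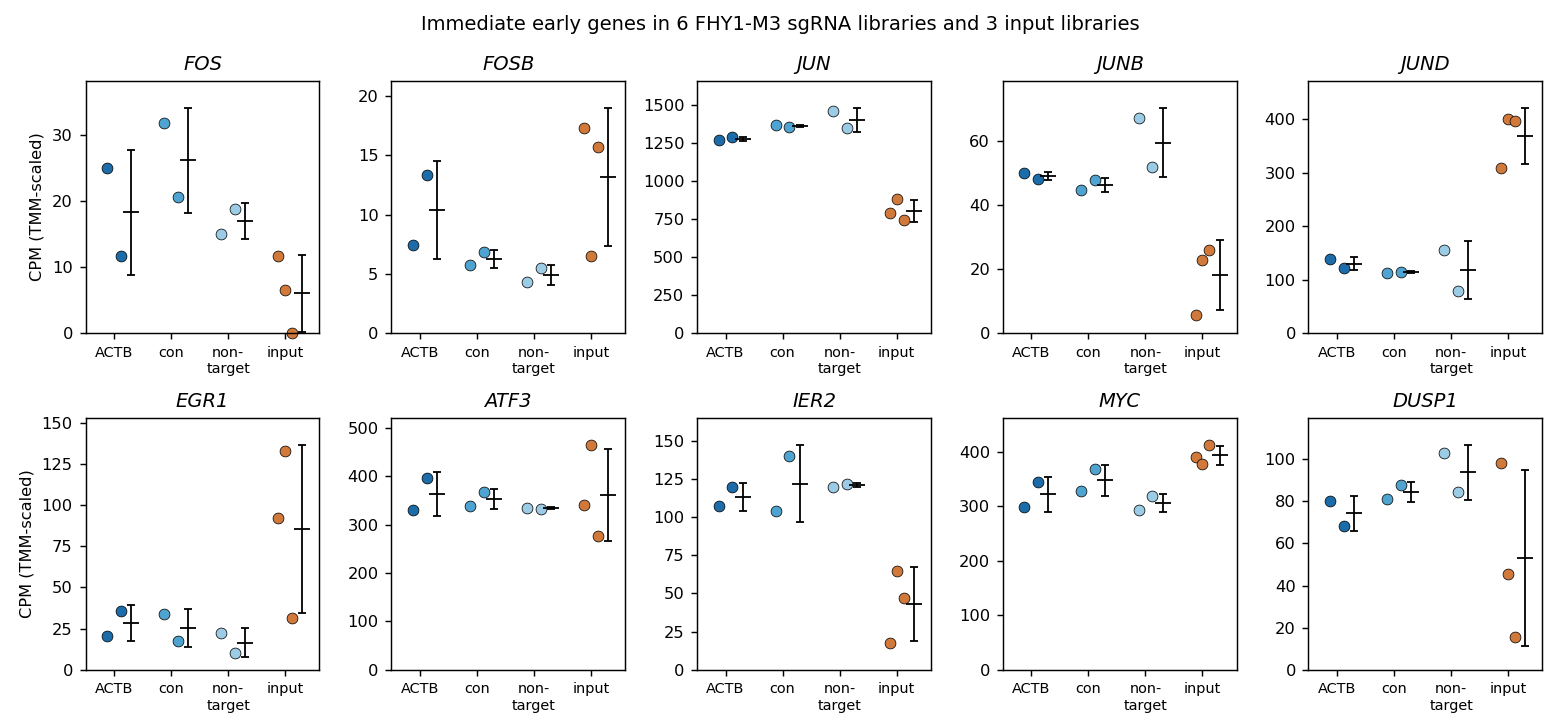
Level of each of the 10 genes in CPM (vertical axis, linear from 0, a scale per gene) in the ACTB, con and non-target sgRNA libraries and the inputs; each point is a library and each bar the group mean ± SD (n = 2, 2, 2 and 3). JUN lies at 1270 to 1460 CPM in all 6 FHY1-M3 libraries and no higher than 884 CPM in the inputs, JUND goes the other way, and EGR1, DUSP1 and IER2 spread widely among the inputs.

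The sequences before the starts of the 4 genes whose calls held under every alternative are shown as the upstream DNA of the 2 that rose (JUN and IER2) and the 2 that fell (JUND and EGR1). They are the 250 bases upstream of the RefSeq start (GRCh38.p14), 5′ to 3′ on the gene's strand, for JUN at chr1:58784048-58784297, minus strand, IER2 at chr19:13150161-13150410, plus strand, JUND at chr19:18281623-18281872, minus strand and EGR1 at chr5:138465229-138465478, plus strand. Capitals mark TGACNTCA in JUN, TGACNTCA and TGACGT in JUND, TGACGT and the CArG box in EGR1, on either strand, and no letters of IER2 are marked.
JUN: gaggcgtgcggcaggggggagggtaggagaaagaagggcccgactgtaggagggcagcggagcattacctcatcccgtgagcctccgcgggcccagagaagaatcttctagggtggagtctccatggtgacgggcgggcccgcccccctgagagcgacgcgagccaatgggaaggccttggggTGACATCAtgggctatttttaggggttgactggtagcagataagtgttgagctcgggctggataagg
IER2: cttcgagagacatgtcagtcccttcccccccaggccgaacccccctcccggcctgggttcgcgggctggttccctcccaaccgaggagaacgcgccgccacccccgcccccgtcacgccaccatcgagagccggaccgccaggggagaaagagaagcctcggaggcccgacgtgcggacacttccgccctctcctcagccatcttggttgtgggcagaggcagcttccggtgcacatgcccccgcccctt
JUND: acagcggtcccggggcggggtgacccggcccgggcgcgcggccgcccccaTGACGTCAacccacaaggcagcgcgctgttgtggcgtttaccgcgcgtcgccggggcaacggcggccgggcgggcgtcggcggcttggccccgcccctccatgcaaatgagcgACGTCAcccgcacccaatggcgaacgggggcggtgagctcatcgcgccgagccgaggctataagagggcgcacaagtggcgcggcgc
EGR1: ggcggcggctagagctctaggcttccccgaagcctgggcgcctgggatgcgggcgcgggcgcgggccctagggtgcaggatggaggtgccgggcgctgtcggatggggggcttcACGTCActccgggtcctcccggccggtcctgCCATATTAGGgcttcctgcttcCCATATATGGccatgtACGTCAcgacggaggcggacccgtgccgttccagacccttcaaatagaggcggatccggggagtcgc

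The EGR1 window holds 2 CArG boxes, the CC, A/T-rich, GG element that SRF binds, at 105 and 83 bases before the start, and it was the only one of the 9 genes with a window in the table to hold any. That element occurs in 1.16% of the 35116 windows. Only the 250 bases before each start were searched, so an element farther upstream of any of these genes would be missed. The CREB-type hexamer TGACGT was found in FOS, FOSB, JUND, EGR1 and DUSP1, against 7.1% of all windows, and its longer relative TGACNTCA in JUN, JUND, ATF3 and DUSP1, against 6.87%. These 2 motifs overlap where the longer one reads TGACGTCA, as in JUND 200 bases before its start. TGANTCA, only 1 form of the AP-1 motif (6.57% of windows), and the heat shock element of 3 alternating GAA units (0.441%) were found in none of the 9. CACGTG, the E-box bound by MYC, was found in DUSP1 (6.34% of windows), and the EGR-type motif GCGNGGGCG in EGR1 itself (8.41%). TATAAA was found in FOS, FOSB, JUNB, ATF3 and DUSP1 (10.7%). It lay 30 to 33 bases before the start in FOS, FOSB, JUNB and DUSP1, and 230 bases before it in ATF3. ATF3 has more than 1 window, and its TATAAA and TGACNTCA lie in different ones. The percentages are shares of windows and not of genes. JUN, which rose, and JUND, which fell, both held TGACNTCA. A match is a run of letters and not evidence of binding.

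Among the FOS proteins, FOS (chromosome 14, 75278828 to 75282230, GRCh38.p14) stood at a lowest, median and highest level of 11.6, 19.6 and 31.7 CPM across the FHY1-M3 libraries. In the inputs it stood at 11.6, 6.5 and 0 CPM, which are 4, 4 and 0 counts. The lowest FHY1-M3 library and the highest input thus touch at the printed precision. Counted as read pairs, since both mates appear to have been counted, the exact binomial 95% bounds before TMM scaling were 1.38 to 41.2 CPM in input replicate 1, 0.752 to 22.4 CPM in replicate 2 and 0 to 18.8 CPM in replicate 3. FOS averaged 20.4 ± 7.18 CPM in FHY1-M3 libraries (SD, n = 6) and 6.02 ± 5.8 CPM in inputs (SD, n = 3), a log2 fold change of 1.74 (SE 0.70, 95% interval 0.32 to 3.16) with an adjusted p of 0.0757. That estimate is the second in size of the 10 and did not pass, except without input replicate 1 (log2 2.36, adjusted p = 0.0367).

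FOSB, the FOS paralog (chromosome 19, 45467996 to 45475179), stood at a lowest, median and highest level of 4.3, 6.27 and 13.3 CPM in the FHY1-M3 libraries. Inputs stood at 17.3, 6.5 and 15.7 CPM, from 16 counts in all. The highest FHY1-M3 library, ACTB sgRNA replicate 2, lies within the range of the inputs. The log2 fold change was -0.90 (SE 0.78, 95% interval -2.48 to 0.67, adjusted p = 0.453), so a fall to 0.18 of the input level and a rise of 1.59-fold both lie within the interval.

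The 3 JUN genes moved apart. JUN (chromosome 1, 58780791 to 58784047) stood at 1270, 1350 and 1460 CPM as its lowest, median and highest level in FHY1-M3 libraries and at 792, 884 and 742 CPM in the inputs. Every FHY1-M3 library was above every input, and its relative spread was the narrowest of the 10 genes among FHY1-M3 libraries, with a coefficient of variation of 4.95%. It averaged 1350 ± 66.8 CPM against 806 ± 72 CPM in inputs, a 1.67-fold rise (log2 0.74, SE 0.08, 95% interval 0.57 to 0.90, adjusted p = 7.8e-09).

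JUNB (chromosome 19, 12791486 to 12793315) stood at 44.7, 49.2 and 67.2 CPM in FHY1-M3 libraries, lowest, median and highest, and at 5.78, 22.8 and 26.1 CPM in the inputs, from 26 counts in all. The groups did not overlap, and input replicate 1 was the lowest library of the 9. JUNB averaged 51.6 ± 7.97 CPM against 18.2 ± 10.9 CPM in inputs (log2 1.44, SE 0.41, adjusted p = 0.0113, 2.71-fold). Without input replicate 1 the rise was 1.08 on the log2 scale and lost its call (adjusted p = 0.052). The end of HOOK2, a microtubule linker gene, overlaps JUNB, and the strand setting of the counting is not stated, so reads of the pair may not be separable. HOOK2 itself differed by 0.88 (SE 0.47, adjusted p = 0.2).

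JUND (chromosome 19, 18279694 to 18281622) stood at 79.3, 118 and 156 CPM in FHY1-M3 libraries, lowest, median and highest, and at 309, 401 and 397 CPM in the inputs. Every FHY1-M3 library lay below every input, and the lowest and the highest were both non-target sgRNA libraries. JUND averaged 121 ± 26.1 CPM against 369 ± 52 CPM in inputs and fell to 0.325 of the input level (log2 -1.62, SE 0.17, 95% interval -1.96 to -1.28, adjusted p = 1.56e-09). The ratio of JUN to JUND counts within a library, which no scaling between libraries can change, was 9.14 and 10.6 in ACTB, 12.1 and 11.8 in con and 9.36 and 17 in non-target libraries, and 2.56, 2.2 and 1.87 in the inputs. The ratio was higher in every FHY1-M3 library than in any input, a description that follows from the 2 calls.

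EGR1, the gene with the CArG boxes shown above (chromosome 5, 138465479 to 138469303), stood at 10.3, 21.5 and 35.9 CPM in FHY1-M3 libraries, lowest, median and highest. Inputs stood at 92.5, 133 and 31.4 CPM, from 32, 82 and 12 counts. Input replicate 3 lies inside the FHY1-M3 range, below ACTB sgRNA replicate 2 at 35.9 CPM and con sgRNA replicate 1 at 33.8 CPM. EGR1 averaged 23.4 ± 9.83 CPM against 85.7 ± 51.3 CPM in inputs, and fell by 1.93 on the log2 scale (SE 0.37, 95% interval -2.69 to -1.18, adjusted p = 0.000221), the largest estimate of the 10 in size. Without input replicate 2 the estimate was -1.43 (adjusted p = 0.0353).

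IER2 (chromosome 19, 13150411 to 13154911) stood at 104, 120 and 140 CPM in FHY1-M3 libraries, lowest, median and highest, and at 17.3, 65 and 47.1 CPM in the inputs. The groups were apart, and the inputs differed among themselves by more than the FHY1-M3 libraries did. It averaged 119 ± 12.8 CPM against 43.1 ± 24.1 CPM in inputs, a 2.6-fold rise (log2 1.38, SE 0.28, 95% interval 0.80 to 1.95, adjusted p = 0.000471). IER2 and EGR1 are both classic serum-response genes, and their counts within a library stood in a ratio of EGR1 to IER2 of 0.084 to 0.326 in FHY1-M3 libraries and of 5.33, 2.05 and 0.667 in the inputs. This ratio too follows from the calls of the 2 genes. Its value in input replicate 1 rests on 32 EGR1 and 6 IER2 counts.

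**Figure D2:**
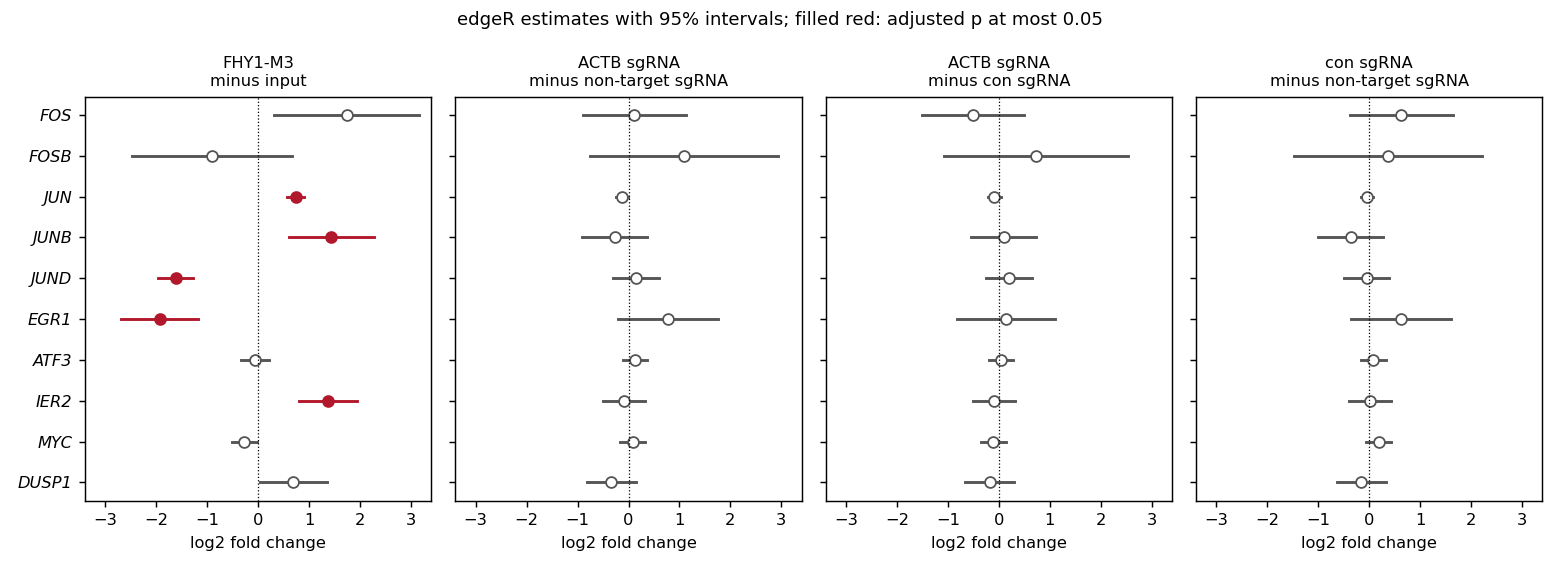
edgeR log2 fold change of each gene with its 95% interval (horizontal axis) in the 4 comparisons, filled red where the adjusted p over all genes is at most 0.05. The left panel holds 5 red points, JUN, JUNB and IER2 above 0 and JUND and EGR1 below, and the 3 panels of guide comparisons hold none.

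ATF3, MYC and DUSP1 did not pass. ATF3 (chromosome 1, 212565407 to 212620777) stood at 331, 337 and 396 CPM in FHY1-M3 libraries, lowest, median and highest, and at 341, 465 and 277 CPM in the inputs, which lie on both sides of them. Its log2 fold change of -0.06 had a narrow interval, from -0.34 to 0.21 (SE 0.14, adjusted p = 0.799), which leaves room for folds between 0.793 and 1.16.

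MYC (chromosome 8, 127735434 to 127742951) stood at 294, 323 and 368 CPM in FHY1-M3 libraries, lowest, median and highest, and at 390, 377 and 413 CPM in the inputs. All 6 FHY1-M3 libraries lay below all 3 inputs, by a small margin. The log2 fold change was -0.27 (SE 0.12, 95% interval -0.52 to -0.03) with an adjusted p of 0.109. MYC did pass under median-ratio scaling (-0.35, adjusted p = 0.0336), with a mean of at least 10 CPM (0.0283), in DESeq2 (0.0162) and after thinning to the mean input total (0.0374), so its call turns on the processing.

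DUSP1 (chromosome 5, 172768096 to 172771195) stood at 68.3, 82.8 and 103 CPM in FHY1-M3 libraries, lowest, median and highest. The inputs ran from 15.7 CPM in replicate 3 through 45.5 CPM in replicate 2 to 98.3 CPM in replicate 1, and so cover the whole FHY1-M3 range but its top. DUSP1 differed by 0.69 on the log2 scale (SE 0.33, 95% interval 0.03 to 1.35, adjusted p = 0.134). Without input replicate 1 the estimate was 1.35 with an adjusted p of 0.00434, and without replicate 3 it was 0.29 (0.561).

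The spread among the inputs was wide for several of these genes. Their coefficient of variation was 96.3% for FOS, 78.7% for DUSP1, 59.9% for JUNB, 59.8% for EGR1 and 55.8% for IER2, and between 4.62% for MYC and 44.3% for FOSB in the other 5. Among FHY1-M3 libraries no gene exceeded 44.5%. Of these 5, replicate 3 was the lowest for FOS, EGR1 and DUSP1, replicate 1 for JUNB and IER2. All 5 calls also passed when each FHY1-M3 library was thinned at random to 462026 counts, the mean of the inputs. The thinning was a single draw of counts and not of read pairs, so it does not match the inputs in read pairs.

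**Figure D3:**
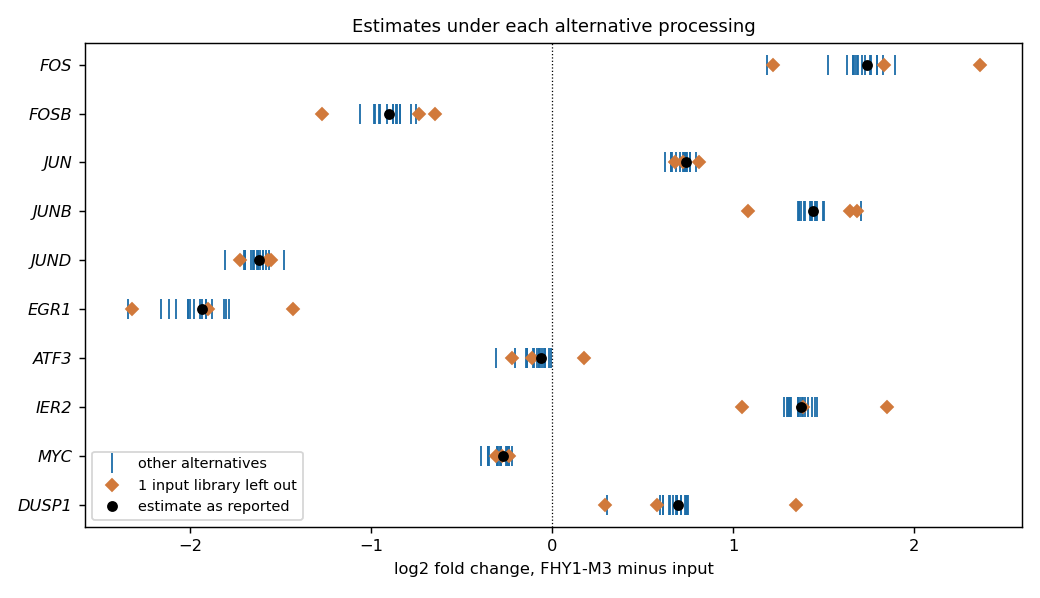
log2 fold change of each gene between FHY1-M3 libraries and input (horizontal axis) as reported (black), with each input library left out in turn (orange) and under the other alternatives (blue). JUN, JUND and MYC stay within narrow ranges, DUSP1 moves between 0.29 and 1.35, and ATF3 crosses 0 when input replicate 2 is left out.

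Between guides the question was whether directing the construct to ACTB changes these genes. None of the 10 passed in any of the 3 comparisons with edgeR, and none with DESeq2. Of 12808 genes tested, 0.25% passed for the ACTB over the non-target guide, 0.0312% for the ACTB over the con guide and 0.172% for the con over the non-target guide. With no adjustment, p was under 0.05 for 1 gene of the 10 for the ACTB over the non-target guide, where it was for 7.82% of all genes. It was for 0 of the 10 in the other comparisons, where 3.86% (ACTB over con) and 5.25% (con over non-target) of all genes were below 0.05. The 3 comparisons share libraries, so they are not independent of each other.

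That 1 gene was JUN, at 1270 and 1290 CPM in ACTB libraries and at 1460 and 1350 CPM in non-target libraries. The pairs did not overlap. Of the 10 genes, 4 had both ACTB libraries below both non-target libraries (JUN, JUNB, IER2 and DUSP1), against 17.6% of all genes, and 1 had both above (FOSB), against 17.5%. The log2 difference was -0.13 (SE 0.06, 95% interval -0.25 to -0.01), with an unadjusted edgeR p of 0.0367 and an adjusted p of 0.605. Against the con sgRNA, at 1370 and 1360 CPM, it was -0.09 (95% interval -0.21 to 0.04, adjusted p = 1), and between con and non-target sgRNA -0.04 (adjusted p = 0.988). The intervals for JUN leave room for folds between 0.841 and 1.05 over the 3 comparisons.

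The less abundant genes were bounded less tightly. EGR1 stood at 20.4 and 35.9 CPM in ACTB, 33.8 and 17.3 CPM in con, and 22.6 and 10.3 CPM in non-target libraries. The pairs overlap, and ACTB differed from non-target by 0.77 on the log2 scale (SE 0.49, interval -0.21 to 1.75, adjusted p = 0.734). FOSB stood at 7.46 and 13.3 CPM in ACTB, 5.72 and 6.82 CPM in con, and 4.3 and 5.47 CPM in non-target libraries. Its log2 difference of ACTB from non-target, 1.09 (SE 0.91, 95% interval -0.75 to 2.93, adjusted p = 0.823), was the largest of the 10 and also the least precise. JUND ranged more between the 2 non-target sgRNA libraries (156 and 79.3 CPM) than between any guide means, which were 130 CPM for ACTB, 114 CPM for con and 118 CPM for non-target libraries. Differences of the size seen against input, such as 1.62 for JUND or 1.38 for IER2, lie outside the intervals of those genes between guides, which reach from -0.50 to 0.64 for JUND and from -0.51 to 0.42 for IER2.

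Among the genes whose levels followed EGR1 most closely over the 9 libraries were MRPL37 (Pearson r 0.963 of log2 CPM) and ASIC1 (0.957), of 10488 genes with at least 10 CPM. For FOS they were C1orf131 (0.992), ENC1 (0.985) and CNST (0.973). With r above 0.9 there were 24 genes for EGR1 and 246 for FOS. The named genes were picked as the closest of many over only 9 points, which include the split between FHY1-M3 and input. In the edgeR test against input, MRPL37 (log2 -0.235, adjusted p = 0.208) and ENC1 (1.315, adjusted p = 0.231) did not pass. ASIC1 (-1.177, adjusted p = 0.00385), C1orf131 (0.972, adjusted p = 0.0328) and CNST (1.726, adjusted p = 0.012) did. These correlations describe the pattern and nothing more.

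Beyond the 10, genes of the same signalling route were counted from 7 lists. Of 117 listed genes that are not among the 10, 112 were tested against input, 12 rose and 12 fell (DESeq2: 11 and 17). In edgeR that is 21.4% of them, against 20% of all genes tested. The unadjusted edgeR p was under 0.05 for 41, or 36.6%, against 31.9% of all genes. DESeq2 called 25% of the listed genes, and 2953 of the 13411 genes past the same filter, against 2677 in edgeR. The DESeq2 shares below are to be read beside that larger number and not beside the 20% of edgeR. The edgeR shares lie near the background, so the counts below describe the lists and set none of them apart. Between guides 0 of 111 passed in each comparison with edgeR and with DESeq2, and in edgeR the unadjusted p was under 0.05 for 7 (ACTB over non-target), 7 (ACTB over con) and 6 (con over non-target). These are 6.31%, 6.31% and 5.41% of the listed genes, against 7.82%, 3.86% and 5.25% of all genes.

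Of 41 tested other immediate early genes 4 rose and 6 fell, and the median was -0.26 on the log2 scale. DESeq2 called 5 and 8, or 31.7%, where it called 2953 of 13411 genes in all. The edgeR calls were 24.4% of the list, against 20% of all genes in edgeR. ZFP36L1, a decay factor of AU-rich mRNAs, averaged 34.6 CPM in FHY1-M3 libraries and 127 CPM in inputs (log2 -1.91, SE 0.27, adjusted p = 1.72e-06). BTG1, an antiproliferative gene tied to deadenylation, averaged 40.7 CPM against 127 CPM in inputs (-1.62, SE 0.27), and HES1, a Notch target repressor, 34 CPM against 98.6 CPM in inputs (-1.52, SE 0.29). GADD45B, a stress-response gene, averaged 43 CPM against 15.1 CPM in inputs (1.44, SE 0.45, adjusted p = 0.0197). Its adjusted p was above the threshold in 4 alternatives: 0.1 with input replicate 3 left out, 0.05 when rounded with non-target replicate 1 left out, 0.126 with a replicate block and 0.0524 after thinning. The block nearly repeats the fit without input replicate 3, since number 3 exists only among the inputs. Among 8 tested dual-specificity phosphatases related to DUSP1, DUSP16, which acts on JNK, rose (0.82, SE 0.20, adjusted p = 0.00345), 0 fell, and DUSP2 held no input counts. That is 12.5% of the list.

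Of 26 genes of the ERK, JNK and p38 cascades 4 rose and 2 fell (median 0.22, DESeq2 3 and 3), or 23.1% against 20% of all genes. MAPK10, the neuronal JNK, averaged 1.72 CPM in FHY1-M3 libraries and 26 CPM in inputs (log2 -3.90, SE 0.98, adjusted p = 0.00369). Its FHY1-M3 mean lies below the 2.92 CPM of the filter, and the inputs held 37 counts. MAPK10 may thus have entered the test only through the inputs. At a mean of 9.8 CPM over the 9 libraries, it was not tested under the filter of at least 10 CPM. RPS6KA4, the kinase MSK2 that phosphorylates CREB, rose by 1.58 (SE 0.48, adjusted p = 0.0165), with an adjusted p of 0.0661 once input replicate 1 was left out. MAP2K3, which activates p38, rose by 1.52 (SE 0.45, adjusted p = 0.013), with an adjusted p of 0.0549 once input replicate 3 was left out, 0.0687 with a replicate block and 0.072 after thinning. Here too the block nearly repeats the fit without input replicate 3.

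Of the ternary complex factors that sit with SRF on CArG boxes, 2 passed, in opposite directions, and ELK3 did not (log2 -0.55, SE 0.44, adjusted p = 0.412). ELK1 averaged 166 CPM in FHY1-M3 libraries and 74.2 CPM in inputs (log2 1.10, SE 0.22, adjusted p = 0.000308), and ELK4 averaged 105 CPM against 264 CPM in inputs (-1.34, SE 0.17, adjusted p = 2.69e-07). SRF did not pass (0.28, SE 0.25, adjusted p = 0.465), and ELK1 and ELK4 were the only 2 of 11 in their list to do so (median 0.04). That is 18.2% of the list.

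Of 12 tested AP-1 partners 1 rose and 1 fell (median -0.05), or 16.7% against 20% of all genes. ATF7, a CREB-type bZIP factor, fell by 2.05 (SE 0.31, adjusted p = 5.02e-06). Of 10 genes of the MYC network 0 rose and 2 fell (median -0.35, DESeq2 0 and 3), among them the MYC antagonist MXI1 (-0.94, SE 0.23, adjusted p = 0.00351). These are 20% of that list in edgeR and 30% in DESeq2. Of 11 genes of AU-rich mRNA decay 1 rose and 2 fell (median -0.42, DESeq2 0 and 4), or 27.3% in edgeR and 36.4% in DESeq2. The 2 that fell in edgeR were ZFP36L1 and BTG1, which also stand on the first list. Of 6 heat shock genes kept for reference 6 rose against input, where 11.4% of all genes rose, with a median of 2.53. They too were chosen with earlier results of these data known. HSPA6 was listed at 0 in every input, so it entered the test only through the FHY1-M3 libraries. No member of the 10 reached that median in size, but EGR1 (-1.93) and FOS (1.74) exceeded the smallest of the 6, HSP90AA1 (1.62), in size.

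**Figure D4:**
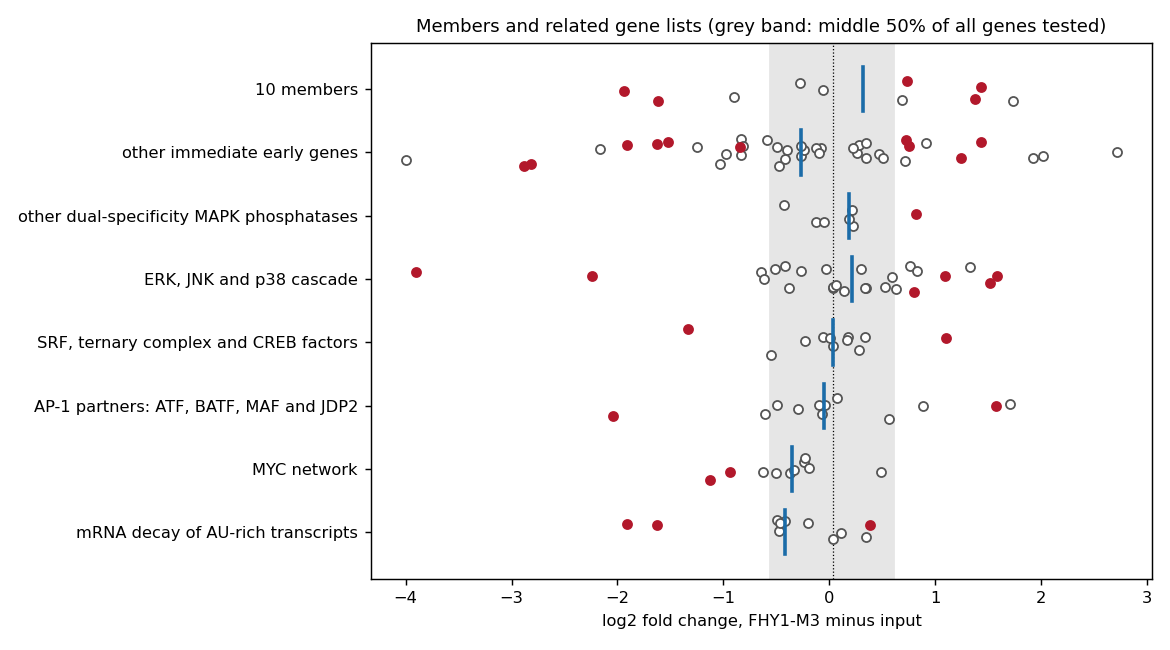
log2 fold change between FHY1-M3 libraries and input (horizontal axis) for the 10 genes and the 7 related lists; each point is a gene (red where the adjusted p is at most 0.05, DUSP2 left off because it held no counts in the inputs), each blue bar a list median over the genes drawn, and the grey band the middle 50% of all genes tested, -0.56 to 0.62. Points of every list fall on both sides of the dotted median of all genes, 0.04.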

How the data were processed

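The authors' deposited table gives whole-number counts of reads for each gene symbol in 9 libraries, with totals that differ between libraries as unscaled counts do. Per the submitters' processing notes, cutadapt 4.3, STAR 2.7.10b, deepTools and hg38 were named. How reads were assigned to genes (tool, strand setting, annotation) is not given in the sources used here. Of values from 1 to 20 counts, 88.5% to 95% per library were even, so both mates of a pair appear to have been counted.

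Counts were compared in R 4.3.3 with edgeR 4.0.16 (quasi-likelihood F test, two-sided, filterByExpr by group, TMM), over all 9 libraries for FHY1-M3 minus input (the mean of 3 guide groups minus input) and over the 6 FHY1-M3 libraries between guides. P-values were Benjamini-Hochberg adjusted over all genes tested. Each SE is the log2 fold change divided by the root of F. All 10 genes passed the filter, which asked for about 2.92 CPM. In each of the 10, at least 2 inputs were above it. Alternatives were other scalings and filters, DESeq2 1.42.0, other libraries in the fit, a replicate block, halved counts, thinning, removal of mitochondrial and histone genes, and leaving out each library. The test was checked on simulated counts.

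Genes named from lists were up to 4 per list with the greatest change among the genes called, at 5 CPM or more and with no overlap between FHY1-M3 libraries and inputs. SRF, ELK3, HOOK2, DUSP2, HSP90AA1 and the genes that lead the correlations were named beside them. Some genes that this rule names are not reported here. The members and lists were chosen with earlier results of these data known. The labels do not tie replicates to separate cultures; p-values therefore reflect spread among libraries, which may be technical. Replicates differed by more than sampling noise (chi-square per degree of freedom 1.85 to 5.18 on halved counts). Promoter sequences are RefSeq's.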

Additional observations from a re-analysis of the deposited data

Results flagged for a closer look

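FOSB reached 13.3 CPM in ACTB sgRNA replicate 2, far above the next of the 6 FHY1-M3 libraries at 7.46 CPM, and the gap covers 0.649 of their range. JUNB reached 67.2 CPM in non-target sgRNA replicate 1, above the next at 51.9 CPM, with a gap of 0.678 of the range. Both exceed Dixon's 95% critical value for 6 samples, which chance alone passes in about 1 group in 20.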

How the results depend on the processing

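Of the 10 genes, 5 passed between FHY1-M3 libraries and input, and 5 or 6 did so under every alternative run. With 1 library left out the number was 5 to 6, and genes called over the whole table numbered 2043 to 2429, against 2677. JUN, IER2, JUND and EGR1 passed in all 19 alternatives, and JUNB in 18. Among these, the replicate block and the fit without input replicate 3 are nearly the same fit. ATF3 changed sign, to 0.18, without input replicate 2. Against non-target sgRNA, the ACTB sgRNA gave 32 genes over the whole table, 21 with a mean of at least 10 CPM, 74 in DESeq2 and 16 with all 9 libraries in the fit, then 18 to 35 with 1 library left out. Against con sgRNA it gave 4, and 7 with no low-count filter, 0 with all 9 libraries in the fit, 2 without mitochondrial and histone genes, and 0 to 3 with 1 library left out. Con against non-target sgRNA gave 22, then 12 at a 10 CPM mean, 38 in DESeq2, and 10 to 27 with 1 library left out. None of the 10 genes passed between guides under any alternative. The cause of these changes was not tested.

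Replicate numbers are shared between groups, but same-numbered libraries did not deviate together (correlation -0.0176 to 0.0197). With a replicate block 5 of the 10 genes passed against input (2309 genes in all), and 31, 4 and 22 genes passed between guides. Replicate number 3 exists only among the inputs, so the block takes that library out of the comparison with input. Its estimates nearly repeat those without input replicate 3 (EGR1 -2.35 and -2.32, DUSP1 0.30 and 0.29), so these are not separate checks. The block turned the sign of 2 estimates near 0 between con and non-target sgRNA, JUND to 0.01 (0.009) and IER2 to -0.01 (-0.006).

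With 1 library left out, signs between guides turned for estimates that had not passed. For ACTB against non-target sgRNA the lowest and highest estimates were -0.54 and 0.56 for FOS, -0.004 and 0.26 for ATF3, -0.026 and 0.18 for MYC, and -0.26 and 0.72 for JUND. For ACTB against con sgRNA they were -0.32 and 0.70 for EGR1, -0.089 and 0.17 for ATF3, and -0.30 and 0.12 for IER2. For con against non-target sgRNA they were -0.22 and 0.20 for IER2, -0.10 and 0.018 for JUN, -0.45 and 0.53 for JUND, and -0.29 and 0.002 for DUSP1. FOS, FOSB and JUNB rest on 8, 16 and 26 input counts, which limits their precision.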
